A study of Homo sapiens with 6 samples.

Results

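The EGF family ligands are secreted or membrane-bound growth factors that activate the ERBB receptors, and 8 of their genes were followed here in A431. This established cell line comes from an epidermoid carcinoma of human skin and is known for its great number of EGF receptors (EGFR). The members were EGF, TGFA, HBEGF, EREG, BTC, EPGN, NRG1 and NRG2. They were chosen by their gene symbol in the array annotation, with the brightest probe set (the group of probes that reports 1 transcript) standing for each gene, and all 8 were found among 17687 measured genes, each with 1 probe set. The cells were starved for 24 h after growth in medium with 10% serum. The control group was given nothing more, the EGF group 100 ng/ml EGF protein, and the EGF plus gefitinib group the same EGF dose together with gefitinib, a drug that blocks the kinase of EGFR, at 10 µM. The labels give 1 harvest time, 30 min, and not the order in which EGF and gefitinib were added. Each of the 3 groups held 2 arrays, called biological replicates in the labels. Since no label speaks of separate cultures, the p-values rest on a spread between samples that may be technical in origin. Whole dishes were measured, so fewer cells of a kind and less RNA per cell cannot be told apart.

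ERBB ligands are made as transmembrane precursors, and metalloproteases such as ADAM17 and ADAM10 cut them to release the growth factor. EGF, TGFA and EPGN bind EGFR, HBEGF, BTC and EREG bind EGFR and ERBB4, and the neuregulins NRG1 and NRG2 bind ERBB3 and ERBB4. In epidermal keratinocytes, ligands made by the cells themselves act back on EGFR, an autocrine loop known from growth and wound repair. Since the EGF protein was added to the dishes, the gene EGF is written below as "the EGF gene" and the treatment as "EGF".

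In the array data 4 ligands were measured above background in at least 1 group and 4 were not. Background was the 95th percentile of an array's negative-control probe sets, which lay between 7.14 and 7.65 on the log2 scale of the deposited values and is called the limit below. NRG1 was above it on 6 of 6 arrays, TGFA on 5, HBEGF on 4 and EREG on 2. The EGF gene, BTC, EPGN and NRG2 were above it on none. EREG cleared the limit through the EGF arrays alone, where it was high, and HBEGF through the EGF and the EGF plus gefitinib arrays, so the number above the limit says nothing about their change. At a stricter limit, the 99th percentile of the negative controls, NRG1 alone of the 8 stayed above background on any array, so every fold given for EREG, HBEGF and TGFA rests on the 95th percentile. Levels of different genes are not compared here, because probe sets differ in how brightly they respond.

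The arrays were alike in the share of probe sets detected. Of 21448 transcript probe sets, 38.4% to 42.1% lay above the limit, and the correlation between both arrays of a group was 0.991 to 0.994 over all of them. Of 4 early targets of EGF signalling, 2 rose with EGF, namely FOSL1, an AP-1 subunit, 16.1-fold and DUSP6, a phosphatase of ERK, 16.5-fold (limma adjusted p = 0.000421 and 0.000208). Of all probe sets, 6.61% were called higher with EGF and 5.3% lower. With gefitinib added to EGF these shares were 8.86% and 9.81%. EGR1, an early transcription factor, was not called with EGF (0.10 ± 0.34, adjusted p = 0.894), nor was FOS, which was within background (-0.42 ± 0.24, adjusted p = 0.321). With gefitinib added to EGF, FOSL1 fell 15.9-fold (adjusted p = 0.000258), DUSP6 2.70-fold (adjusted p = 0.00352) and EGR1 4.36-fold (adjusted p = 0.0061), while FOS was higher within background (0.88 ± 0.24, adjusted p = 0.0412, lost without any 1 array). Against the control, EGF plus gefitinib left DUSP6 6.10-fold higher (adjusted p = 0.00618, lost without control 1, control 2 or EGF plus gefitinib 2) and EGR1 4.07-fold lower (adjusted p = 0.0291, kept only without EGF plus gefitinib 1), and FOSL1 was not called (0.015 ± 0.24, adjusted p = 0.982). All 8 measured epidermal markers of 10 listed, among them KRT5, KRT14 and DSP, were above the limit on every array, while TP63 and KRT6A were not analysed here. Above it on no array were 5 of 7 measured fibroblast markers (among them COL1A1), 6 of 7 of leukocytes (among them PTPRC), 5 of 6 of endothelium (among them PECAM1) and 4 of 5 of melanocytes (among them MLANA). LUM of the fibroblast, CD68 of the leukocyte and MITF of the melanocyte markers were above it on all 6 arrays. COL1A2 of the fibroblast markers was above it on 2 arrays, both of the control, and CDH5 of the endothelial ones on 2. The summed level of the epidermal markers ran on the log2 scale from 17.95 to 17.97 (control), 18.46 to 18.54 (EGF) and 17.75 to 17.83 (EGF plus gefitinib), and that of the fibroblast markers from 10.03 to 10.12, 9.01 to 9.30 and 9.14 to 9.56. In the same order it was 12.80 to 12.83, 12.88 to 13.11 and 12.31 to 12.72 for leukocytes, 7.75 to 8.06, 6.96 to 6.97 and 8.23 to 8.29 for endothelium, and 8.98 to 9.45, 8.82 to 8.84 and 8.96 to 9.37 for melanocytes. These sums add values that are not logged, so the brightest markers carry them. The epidermal marker SFN had group means of 16.50, 17.53 and 15.43 in this order, and KRT5 16.75, 16.83 and 16.78. CD68 of the leukocyte markers had 12.77, 12.96 and 12.47. The sums thus do not measure the share of a cell type. CDH5 was lower with EGF (-2.22 ± 0.24, limma adjusted p = 0.0027) and higher with gefitinib added (2.57 ± 0.24, adjusted p = 0.000901), and LUM was lower with EGF (-1.34 ± 0.26, adjusted p = 0.0194, lost without control 1, control 2, EGF 1 or EGF 2). The part of these markers in the ligand results was not tested.

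EREG lies next to EPGN on chromosome 4 in the RefSeq gene table of GRCh38.p14, with 0 protein-coding genes between them, and BTC follows with 1 between, AREG, which was not analysed here. HBEGF and NRG2 lie on chromosome 5 with 5 protein-coding genes between them, and TGFA lies on chromosome 2. The 250 bases before the RefSeq start of EREG, of its neighbour EPGN and of HBEGF are printed because the first and the last rose with EGF, while EPGN, beside EREG, stayed within background. Capitals mark the matches to the motifs searched. The windows are chr4:74364895-74365144 on the plus strand, chr4:74308220-74308469 on the plus strand and chr5:140346604-140346853 on the minus strand, all GRCh38.p14 and 5′ to 3′ on the gene's strand.
EREG: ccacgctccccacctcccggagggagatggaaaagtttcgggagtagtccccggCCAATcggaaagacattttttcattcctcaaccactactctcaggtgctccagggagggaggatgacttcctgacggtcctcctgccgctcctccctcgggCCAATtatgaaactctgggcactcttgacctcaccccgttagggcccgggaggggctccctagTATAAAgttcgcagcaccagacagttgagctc
EPGN: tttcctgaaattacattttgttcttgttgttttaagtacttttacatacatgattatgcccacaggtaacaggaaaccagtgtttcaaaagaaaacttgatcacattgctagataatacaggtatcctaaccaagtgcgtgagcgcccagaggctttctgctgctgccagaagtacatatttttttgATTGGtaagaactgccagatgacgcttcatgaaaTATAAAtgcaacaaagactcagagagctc
HBEGF: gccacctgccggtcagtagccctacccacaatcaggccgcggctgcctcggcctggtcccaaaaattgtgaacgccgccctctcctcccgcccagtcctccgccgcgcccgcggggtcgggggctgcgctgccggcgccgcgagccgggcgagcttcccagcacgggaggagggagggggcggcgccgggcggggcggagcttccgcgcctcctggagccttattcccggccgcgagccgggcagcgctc

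Each window was searched on both strands for 7 motifs. The AP-1 site was spelled TGANTCA and the cyclic AMP element TGACGTCA. The EGR site was spelled GCGTGGGCG and the ETS site CCGGAAGT, and the CArG box of serum response factor was searched as well. The core promoter motifs were CCAAT and TATAAA. Every motif was searched over the whole window, so the shares below count a match at any position. The motifs were chosen with the members' promoters known. No match overlapped another in the members' windows. EREG held TATAAA at bases -32 to -27 from its start and CCAAT at -196 to -192 and at -95 to -91. EPGN held the same pair of motifs, TATAAA at -29 to -24 and CCAAT, on the opposite strand, at -63 to -59. HBEGF held none of the 7 motifs, and neither did the windows of TGFA, which has 2 starts in RefSeq, BTC or NRG2. The AP-1 letters were found in 1 member, the EGF gene, at -17 to -11 from its start. Over all 35116 windows of this length, TATAAA was found in 10.7%, CCAAT in 32%, the AP-1 letters in 6.57%, the ETS letters in 3.42%, the cyclic AMP element in 1.65%, the CArG box in 1.16% and the EGR letters in 0.72%. CCAAT was also found in the window of the EGF gene, at -249 to -245. GC content was 38.0% in the EPGN window, 58.0% in that of EREG and 76.4% in that of HBEGF. A match is a description of these letters and no evidence of binding. No window was used for NRG1.

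**Figure D1:**
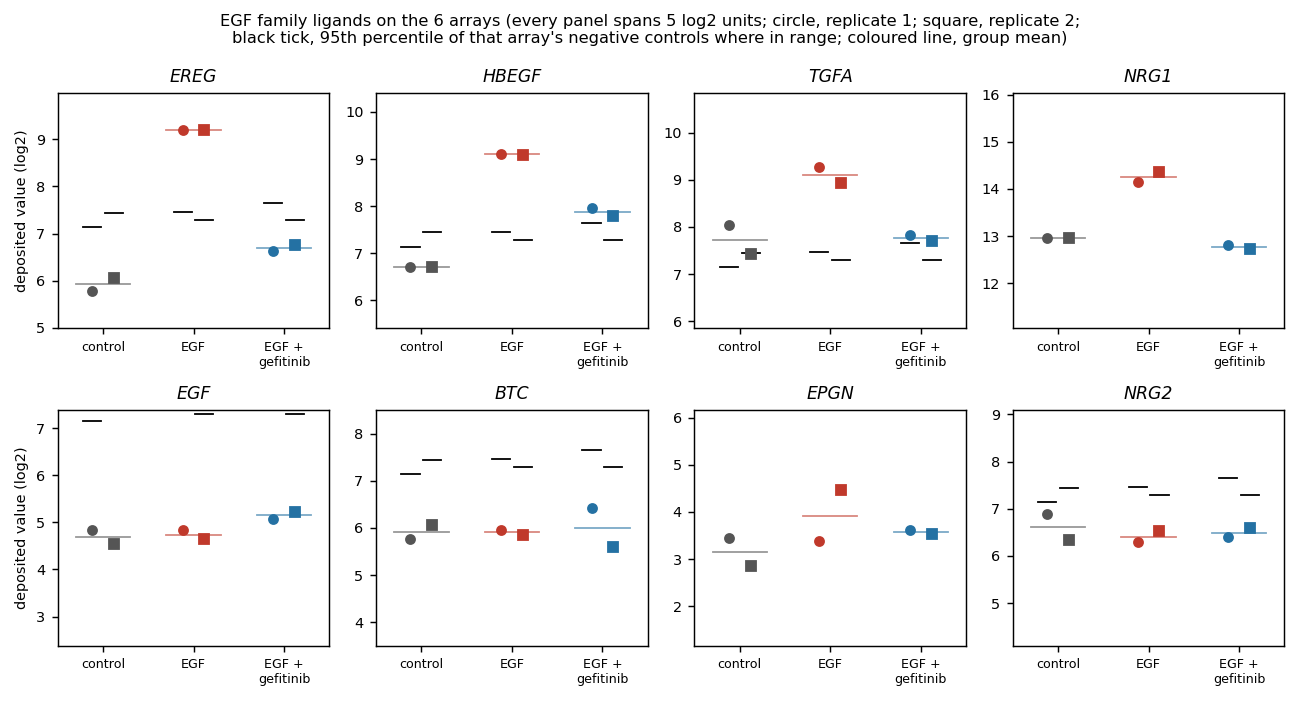
Deposited log2 values (y axis) of the 8 ligands in the 3 groups (x axis), 1 point per array (circles, replicate 1; squares, replicate 2), with a coloured line at each group mean and a black tick at each array's negative-control limit where it lies in range. Every panel spans 5 log2 units; EREG, HBEGF, TGFA and NRG1 are highest on the EGF arrays, while the EGF gene, BTC, EPGN and NRG2 lie under their limits on all 6 arrays.

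The first comparison asked which ligand genes respond when starved cells receive EGF. EREG, HBEGF, TGFA and NRG1 rose, and none of the 8 was called lower. NRG4, a family ligand outside the 8, fell and is described below. Across all probe sets 6.61% were called higher in this comparison and 5.3% lower (limma, adjusted p under 0.05), against 4 and 0 of the 8 ligands. The median difference of the 8 was 1.02 on the log2 scale, beside -0.028 over all probe sets tested. The arrays of the groups did not overlap for these 4, as was the case, in the direction of higher with EGF, for 27% of all probe sets. Differences are given on the log2 scale ± the standard error of the limma fit, with 95% confidence intervals and adjusted p-values from limma, and n = 2 arrays per group.

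EREG encodes epiregulin, a ligand of EGFR and ERBB4 that epidermal and other epithelial cells make when stimulated. Its values were 5.79 and 6.06 on the control arrays, 9.19 and 9.19 on the EGF arrays, and 6.64 and 6.76 on the EGF plus gefitinib arrays. The EGF arrays thus stood alone above the limit, and the control arrays were the lowest. The fitted rise with EGF was 3.26 ± 0.18 (95% interval 2.83 to 3.70, adjusted p = 0.000325). Because both control arrays were within background, the fold is a lower bound, at least 3.73-fold, taken against the mean limit of the control arrays.

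HBEGF, heparin-binding EGF-like growth factor, is both a growth factor of keratinocytes and the receptor of diphtheria toxin. Its control arrays measured 6.70 and 6.71, its EGF arrays 9.11 and 9.09, and its EGF plus gefitinib arrays 7.96 and 7.80. The 3 groups did not overlap, with the EGF plus gefitinib arrays between the other groups. HBEGF rose with EGF by 2.39 ± 0.17 (95% interval 1.99 to 2.80, adjusted p = 0.000671), at least 3.51-fold, with both control arrays within background. The calls of EREG and HBEGF in this comparison were kept without each of the 6 arrays in turn, with differences of 3.13 to 3.40 and 2.38 to 2.40.

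TGFA encodes transforming growth factor alpha, a ligand of EGFR alone among the receptors and a classical autocrine factor of epidermal tumours. The control arrays measured 8.04 and 7.42, the second of them just within background, the EGF arrays 9.27 and 8.93, and the EGF plus gefitinib arrays 7.84 and 7.70. The control arrays had an SD of 0.44, the widest within a group among the 4 ligands above background, and both EGF arrays were higher than either of them. TGFA rose with EGF 2.58-fold, by 1.37 ± 0.25 (95% interval 0.77 to 1.96, adjusted p = 0.016). This call was lost without control 2 (1.06, adjusted p = 0.0845), without EGF 1 (1.20, adjusted p = 0.101) and without EGF 2 (1.54, adjusted p = 0.0576).

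NRG1 encodes neuregulin 1, which binds ERBB3 and ERBB4 and has many isoforms that this probe set cannot separate. It was bright throughout, at 12.97 and 12.96 on the control arrays, 14.14 and 14.35 on the EGF arrays, and 12.81 and 12.73 on those of EGF plus gefitinib. The EGF arrays were the highest and the EGF plus gefitinib arrays the lowest, with no overlap. NRG1 rose with EGF 2.43-fold, by 1.28 ± 0.18 (95% interval 0.87 to 1.69, adjusted p = 0.0058). Without EGF 2 the rise of 1.18 was not called (adjusted p = 0.0511), and it was called without each other array in turn.

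The 4 ligands within background give no fold. The EGF gene, whose product is the agent added, measured 4.55 to 5.22 over the 6 arrays, and 65.0% to 75.7% of an array's negative controls lay below it. BTC, betacellulin, measured 5.59 to 6.42, and NRG2 measured 6.30 to 6.89, close under the limit of 7.14 on the first control array. EPGN, epigen, measured 2.86 to 4.46, with 18.0% to 65.4% of the negative controls below it, and its EGF arrays were 3.38 and 4.46. The fitted differences with EGF were 0.049 ± 0.19 for the EGF gene, -0.020 ± 0.29 for BTC, 0.76 ± 0.37 for EPGN and -0.20 ± 0.24 for NRG2. None of them was called (limma adjusted p = 0.243 for EPGN and 0.651 to 0.977 for the other three). The 95% intervals ran from -0.41 to 0.50 for the EGF gene, -0.69 to 0.65 for BTC, -0.098 to 1.62 for EPGN and -0.76 to 0.35 for NRG2, but within background a change in RNA need not show in the value.

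**Figure D2:**
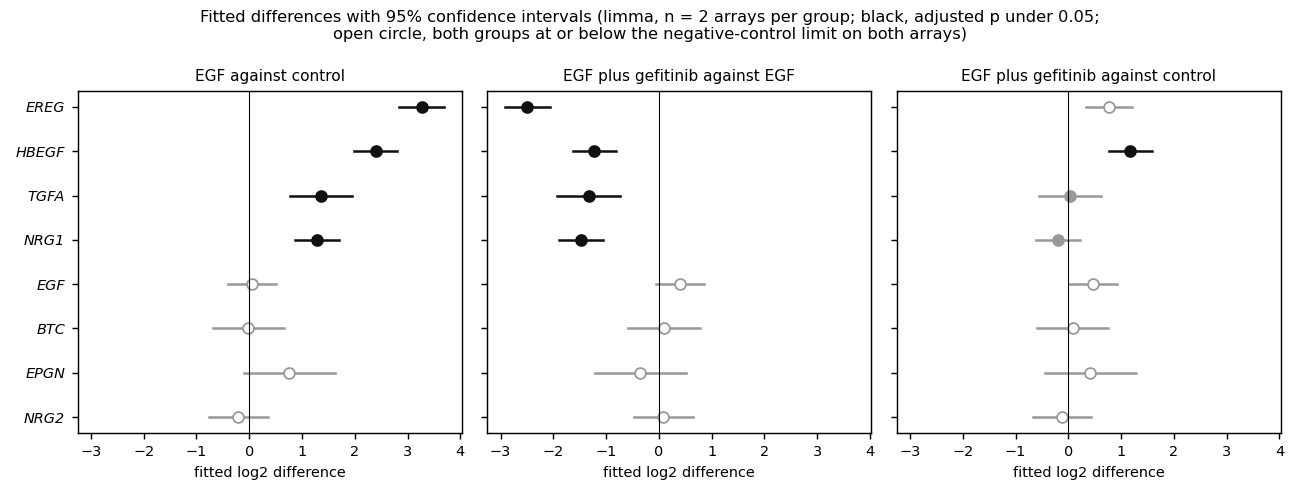
Fitted log2 difference (x axis) of each ligand (y axis) in the 3 comparisons, with 95% confidence intervals from limma (n = 2 arrays per group). Black marks an adjusted p under 0.05 and an open circle a ligand with both groups within background on both arrays; 4 ligands are called higher with EGF, the same 4 are called lower with gefitinib added, and HBEGF alone is called when EGF plus gefitinib is set against control.

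With gefitinib added to EGF, the question was which ligand genes respond differently to the growth factor. EREG, HBEGF, TGFA and NRG1 were all lower with gefitinib, and none of the 8 was called higher. Of all probe sets 9.81% were called lower here and 8.86% higher, against 4 and 0 of the 8 ligands, and the median difference of the 8 was -0.78, beside 0.046 over all probe sets. This comparison and the first share the EGF arrays, so that an EGF array that reads high moves both. The arrays did not overlap for the 4, as for 26.3% of all probe sets in the direction of lower with gefitinib.

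EREG fell by 2.49 ± 0.18 (95% interval of the difference -2.92 to -2.06, adjusted p = 0.000464), at least 3.29-fold, to within background on both arrays. NRG1 fell 2.78-fold (-1.47 ± 0.18, 95% interval -1.89 to -1.06, adjusted p = 0.00201). These ligands bind different receptors, EREG chiefly EGFR and NRG1 ERBB3 and ERBB4. HBEGF fell 2.33-fold (-1.22 ± 0.17, 95% interval -1.62 to -0.82, adjusted p = 0.00364), and stayed above background on both arrays. TGFA fell 2.51-fold (-1.33 ± 0.25, 95% interval -1.92 to -0.74, adjusted p = 0.0112). The falls of EREG, NRG1 and HBEGF were called without each array in turn, and that of TGFA was lost without EGF 1 (-1.16, adjusted p = 0.0756) and without EGF plus gefitinib 2 (-1.26, adjusted p = 0.0642). The EGF gene, BTC, EPGN and NRG2 differed by 0.41 ± 0.19, 0.099 ± 0.29, -0.35 ± 0.37 and 0.087 ± 0.24, none of them called (limma adjusted p = 0.204 to 0.859). The EGF plus gefitinib arrays of the EGF gene, 5.07 and 5.22, were both above its EGF arrays, 4.84 and 4.64, as for 30.8% of all probe sets, and all 4 were within background.

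The third comparison set EGF plus gefitinib against the untreated control. HBEGF was higher with EGF plus gefitinib, by 1.17 ± 0.17 (95% interval 0.77 to 1.58, adjusted p = 0.0198) or at least 1.51-fold, and it was the 1 ligand of 8 called higher, beside 2.19% of all probe sets, with 0 ligands and 1.7% of all probe sets called lower. That call rested on the spread shared by all 6 arrays. It was lost without control 1, control 2, EGF plus gefitinib 1 or EGF plus gefitinib 2, with differences of 1.10 to 1.25. It was also lost when only the 4 arrays compared were fitted (limma adjusted p = 0.0537). Leaving out EGF 1 or EGF 2 gives that same fit and is no separate check. EREG was higher on both EGF plus gefitinib arrays than on either control array and differed by 0.77 ± 0.18 (95% interval 0.34 to 1.21), which was not called (adjusted p = 0.0665), and all 4 arrays were within background. The arrays did not overlap in this direction for 25.6% of all probe sets. It was called when the fit let the spread depend on the level (adjusted p = 0.0409). It was also called when only probe sets above the limit on at least 2 arrays were tested (adjusted p = 0.00976), a filter it passed through its EGF arrays alone, so that this call is no support.

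TGFA and NRG1 were not called between EGF plus gefitinib and control. TGFA differed by 0.035 ± 0.25, with an interval from -0.56 to 0.63 and overlapping arrays (adjusted p = 0.956). NRG1 differed by -0.19 ± 0.18, with an interval from -0.61 to 0.22 (adjusted p = 0.594), and both EGF plus gefitinib arrays were below both control arrays, as for 24.7% of all probe sets. Neither value shows that these genes were back at the control level, since the intervals reach well to both sides of 0. Whether HBEGF kept more of its rise than TGFA or NRG1 was not tested. The EGF gene differed by 0.46 ± 0.19, BTC by 0.079 ± 0.29, EPGN by 0.41 ± 0.37 and NRG2 by -0.12 ± 0.24 (limma adjusted p = 0.238 to 0.909). The median of the 8 was 0.25, beside 0.011 over all probe sets. In order of their group means, all 4 of the 8 ligands that were above background were highest with EGF. That count is no support, since EREG passed the limit through its EGF arrays alone and HBEGF through no control array. The control and EGF plus gefitinib groups were not told apart for TGFA, NRG1 and EREG, and the call that separated them for HBEGF was lost with any 1 array left out.

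The ligands above background were then set beside the genes whose values followed them most closely. Likeness was measured as the root-mean-square difference between 2 genes' log2 values over the 6 arrays, each centred on its own mean, among 7932 other genes above the limit on both arrays of a group. EREG was most like FST, the activin inhibitor follistatin, at 0.073 log2 units, followed by TNFRSF10A, a receptor of the death ligand TRAIL (0.24), and STAMBPL1 (0.24). EREG entered this search through its EGF arrays alone, and its other 4 values lay within background, so that its nearness to these genes there compares them with values that are not measured levels. HBEGF was most like SOX9, a transcription factor of epithelial progenitors (0.17), OSTM1 (0.18) and OSMR, the receptor of oncostatin M (0.19). TGFA was most like MAK16, a ribosome biogenesis factor (0.098), TDG, a DNA glycosylase (0.13), and PUS3, a pseudouridine synthase (0.13). NRG1 was most like SP110, a nuclear body protein (0.051), LY6K, a surface antigen (0.061), and PITPNB, a lipid transfer protein (0.080). The median gene searched was 1.41 units from EREG, 1.01 from HBEGF, 0.71 from TGFA and 0.69 from NRG1. Among the ligands, TGFA and NRG1 were the closest pair at 0.26, and TGFA and EREG the farthest at 0.83. The 3 groups of arrays make up most of each profile, so likeness means like levels in the groups, and the named neighbours changed with single arrays. Of the 3 nearest genes of each ligand, 0 to 3 were found again for TGFA and 1 to 3 for EREG, HBEGF and NRG1 when an array was left out or the arrays were normalized anew. None was shared for TGFA without control 1, control 2 or EGF 1.

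**Figure D3:**
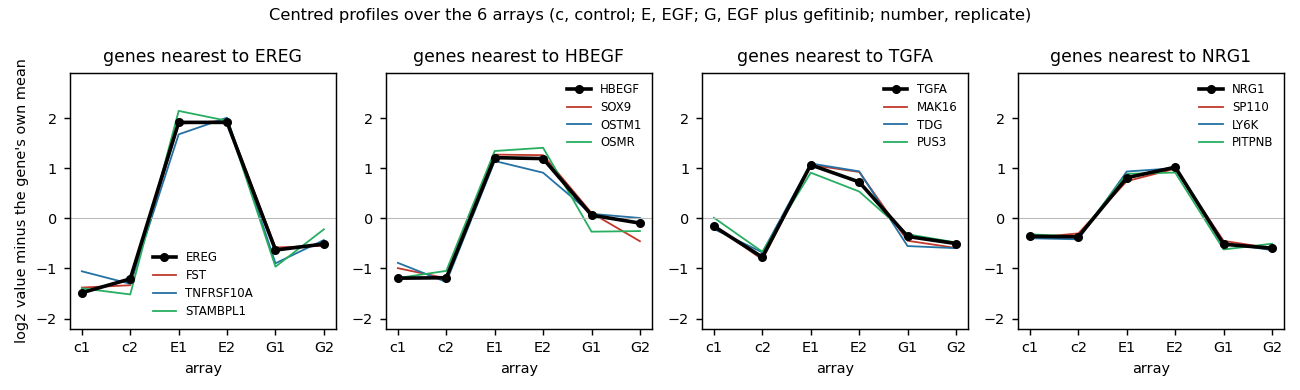
Log2 value minus the gene's own mean over the 6 arrays (y axis) on each array (x axis: c, control; E, EGF; G, EGF plus gefitinib, with the replicate number), for each ligand above background (black) and its 3 nearest genes (coloured). Lines only join a gene's values; the FST line lies on that of EREG with a root-mean-square difference of 0.073 log2 units.

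Of the other ligands of the family, NRG3 and NRG4 were measured, and NRG4 fell with EGF. NRG4 encodes a neuregulin that binds ERBB4. Its values were 10.48 and 10.58 in the control, 8.69 and 8.38 with EGF alone, and 9.42 and 9.19 in the EGF plus gefitinib group, with no overlap between the 3 groups, and 28.5% of all probe sets had EGF arrays below both control arrays. NRG4 was called in each comparison. It fell with EGF 3.99-fold (SE 0.20 on the log2 scale, adjusted p = 0.00186), a call kept without each array in turn, while NRG1 rose in the same comparison. With gefitinib added NRG4 was higher than with EGF alone by 0.77 ± 0.20 (adjusted p = 0.0348) and still lower than the control, by -1.23 ± 0.20 (adjusted p = 0.0254). Both of these calls were lost without each of the arrays control 1, control 2, EGF 1, EGF 2, EGF plus gefitinib 1 and EGF plus gefitinib 2, with differences of 0.61 to 0.92 and of -1.34 to -1.12. NRG3 was within background on all 6 arrays (-0.24 ± 0.30 with EGF, adjusted p = 0.675; 0.35 ± 0.30 for EGF plus gefitinib against EGF, adjusted p = 0.479; 0.11 ± 0.30 for EGF plus gefitinib against control, adjusted p = 0.874).

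Of 3 measured receptors of these ligands, ERBB3 fell with EGF and EGFR was not called. Of all probe sets, 5.3% were called lower with EGF. ERBB3, a receptor of NRG1 and NRG2 with a weak kinase of its own, measured 11.47 and 11.50 in the control, 9.13 and 9.01 with EGF, and 11.30 and 11.57 with EGF plus gefitinib. It thus fell 5.34-fold with EGF (-2.42 ± 0.18, adjusted p = 0.000839) and was 5.16-fold higher with gefitinib added (2.37 ± 0.18, adjusted p = 0.000553), where its difference from the control was not called (-0.049 ± 0.18, adjusted p = 0.911). EGFR, the target of gefitinib, measured 14.42 and 14.38 in the control, 14.44 and 14.44 with EGF, and 15.26 and 15.36 with EGF plus gefitinib. It differed by 0.040 ± 0.17 with EGF (adjusted p = 0.916, and -0.063 after quantile normalization) and was 1.82-fold higher with gefitinib added (0.87 ± 0.17, adjusted p = 0.0125). The call of that rise was lost without EGF 1, EGF 2 or EGF plus gefitinib 2 (0.81 to 0.87, adjusted p = 0.0521 to 0.0729). Against the control EGFR was higher by 0.91 ± 0.17 (limma adjusted p = 0.0372), a call lost without any 1 of the 6 arrays (0.85 to 0.96). It was lost too with only the compared groups fitted (limma adjusted p = 0.0764), the same fit as without EGF 1 or EGF 2. ERBB4 was within background on all arrays (-0.25 ± 0.23, 0.24 ± 0.23 and -0.0080 ± 0.23 in the 3 comparisons, adjusted p = 0.54 to 0.989), and ERBB2 was not analysed here.

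**Figure D4:**
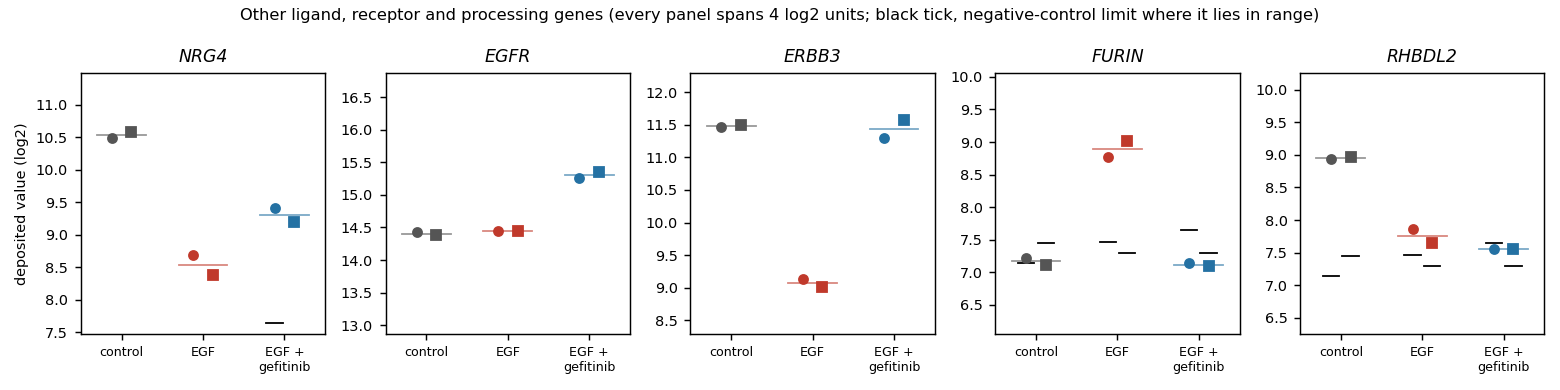
Deposited log2 values (y axis) of NRG4, EGFR, ERBB3, FURIN and RHBDL2 in the 3 groups (x axis), 1 point per array (circles, replicate 1; squares, replicate 2), with a coloured line at each group mean and black ticks at the negative-control limits in range. Every panel spans 4 log2 units; NRG4 and ERBB3 are lowest on the EGF arrays and FURIN is highest there.

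Among genes that process or carry the ligands, few were called. Of 21 measured of 23 listed, 3 rose and 1 fell with EGF, 1 was higher and 2 were lower with gefitinib added to EGF, and 0 were higher and 1 lower with EGF plus gefitinib than in the control. Over all probe sets, the shares called higher and lower were 6.61% and 5.3% with EGF, 8.86% and 9.81% with gefitinib added, and 2.19% and 1.7% against the control, so that most of these counts lie near what those shares give. Their median differences were 0.10, -0.27 and -0.051 in the 3 comparisons, against -0.028, 0.046 and 0.011 over all probe sets. FURIN, a convertase that activates metalloprotease precursors, measured 7.22 and 7.12 in the control, 8.78 and 9.01 with EGF, and 7.14 and 7.10 with EGF plus gefitinib. The second control array was within background, and the mean of both lay below their mean limit. FURIN rose with EGF by 1.72 ± 0.18 (adjusted p = 0.00237), with no fold given for that reason, and fell at least 2.68-fold with gefitinib added (-1.78 ± 0.18, adjusted p = 0.00115), both called without each array in turn. RHBDL2, a rhomboid protease able to cut EGF family precursors, fell 2.29-fold with EGF (-1.19 ± 0.17, adjusted p = 0.00722), which was lost without control 2 or EGF 2, and was 2.64-fold lower with EGF plus gefitinib than in the control (-1.40 ± 0.17, adjusted p = 0.0147), which was lost without control 1, control 2, EGF plus gefitinib 1 or EGF plus gefitinib 2. CD44, a surface glycoprotein that can carry HBEGF, rose 1.78-fold with EGF (0.83 ± 0.18, adjusted p = 0.0286), and ADAM8 rose within background (1.30 ± 0.26, adjusted p = 0.0227) and fell with gefitinib added (-1.12 ± 0.26, adjusted p = 0.0265). The convertase PCSK5 was 1.71-fold higher with gefitinib added (0.77 ± 0.21, limma adjusted p = 0.04). PCSK5 was within background on EGF 1, and RHBDL2 on EGF plus gefitinib 1. Each of these calls of CD44 and ADAM8 with EGF was lost without control 1, control 2, EGF 1 or EGF 2, that of ADAM8 with gefitinib without EGF 1, EGF 2 or EGF plus gefitinib 2, and that of PCSK5 without any 1 of the 6 arrays. The sheddase genes ADAM17 and ADAM10 were not called in any comparison (0.53 ± 0.25 and -0.25 ± 0.18 with EGF, adjusted p = 0.24 and 0.458). Without single arrays the count called with EGF was 1 to 3 higher and 0 to 1 lower, with gefitinib added 0 higher and 1 to 2 lower, and against the control 0 higher and 0 to 1 lower.

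Adaptors and negative regulators of the receptors are the last group. With EGF 6 of 18 rose and 2 fell. With gefitinib added to EGF 2 were higher and 4 lower, and with EGF plus gefitinib 3 were higher and 0 lower than in the control. Over all probe sets 6.61% rose and 5.3% fell with EGF, 8.86% were higher and 9.81% lower with gefitinib added, and 2.19% were higher and 1.7% lower against the control. The list's median differences were 0.36, -0.16 and 0.20 in this order, beside -0.028, 0.046 and 0.011 over all probe sets. ERRFI1, a feedback inhibitor of the EGFR kinase, rose 2.99-fold with EGF (1.58 ± 0.19, adjusted p = 0.00381), and with EGF plus gefitinib it was still 2.72-fold above the control (1.44 ± 0.19, adjusted p = 0.0166). LRIG3, a transmembrane protein of a family that restrains ERBB receptors, likewise rose 2.49-fold (1.32 ± 0.21, adjusted p = 0.00964) and was 2.19-fold above the control with EGF plus gefitinib (1.13 ± 0.21, adjusted p = 0.0365). SOCS4 rose 2.34-fold with EGF and fell 2.25-fold with gefitinib added, where its value on EGF plus gefitinib 1 was within background. GAB1, a docking protein below the receptors, fell 2.51-fold and was 3.28-fold higher with gefitinib, and the ubiquitin ligase CBLB fell 2.15-fold and was 3.24-fold higher. SPRY4, an inhibitor of receptor signalling, rose by 1.70 ± 0.24 within background and fell by 1.42 ± 0.24 with gefitinib added. SH3KBP1 and GRB2, both adaptors, fell 2.28-fold and 1.80-fold with gefitinib. Both SH3KBP1 and CBL, another ubiquitin ligase, rose with EGF (0.80 ± 0.17 and 1.09 ± 0.20, limma adjusted p = 0.0265 and 0.0162). CBL was within background on every array, so its rise gives no fold. CBL was higher with EGF plus gefitinib than in the control within background (0.99 ± 0.20, adjusted p = 0.0451). The EGF calls were lost without control 2, EGF 1 or EGF 2 for LRIG3 and CBLB, without control 2 or EGF 1 for GAB1, without EGF 2 for SOCS4, and without control 1, control 2, EGF 1 or EGF 2 for SH3KBP1 and CBL. The call of GRB2 with gefitinib was lost without EGF 1, EGF 2, EGF plus gefitinib 1 or EGF plus gefitinib 2. Against the control, the calls of LRIG3 and CBL were lost without any 1 of the 6 arrays, and that of ERRFI1 without control 1, control 2, EGF plus gefitinib 1 or EGF plus gefitinib 2. Without single arrays the count called with EGF was 2 to 6 higher and 0 to 2 lower, with gefitinib added 2 higher and 3 to 4 lower, and against the control 0 to 1 higher and 0 lower.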

How the data were processed

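RNA of 6 A431 samples, 2 per group, was measured on 1 array each. The authors deposited log2 values, a scale read from their range of 1.58 to 18.9. Per the submitters' processing notes they came from Transcriptome Analysis Console. The sources used here give no version of it, and neither the background correction nor the normalization, so the effect of these steps on dim probe sets cannot be judged. The values were used as deposited. All columns had a sample.

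Of 24351 probe sets 2903 were controls and were left out of the fit, 612 of them negative controls. The other 21448 were tested without a filter; 17709 had 1 gene symbol, 0 had several and 3739 are unnamed here. Symbols were checked through gene identifiers in RefSeq, and 0 changed. For 20 genes the brightest of several probe sets was taken.

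Groups were compared with limma 3.58.1 (lmFit, eBayes) in R 4.3.3 with jsonlite 2.0.0, in 1 fit of all 6 arrays with 3 residual degrees of freedom and 4.22 from the prior. The two-sided tests were adjusted by Benjamini-Hochberg over all 21448, and called at an adjusted p under 0.05. A fold is a lower bound where both arrays of the dimmer group were at or below the limit, and none is given where both groups were. The fit was tested on simulated data. All 8 members were named; from the other lists, members called in a comparison were named, at most 6 a list and comparison by the size of the moderated statistic, with all measured ligands and receptors. ADAM17, ADAM10, the EGF values of CBL and SH3KBP1, EGR1 and FOS where not called, and the markers LUM, COL1A2, CD68, MITF and CDH5 were added after their values were seen. Members and lists were chosen with earlier results of these data known.

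Alternatives tried were left-out arrays, other fits and scalings, and a filter; those on the other gene lists and on likeness were added after seeing the data. The number of arrays limits the precision.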

Additional observations from a re-analysis of the deposited data

How the results depend on the processing

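For each result 13 alternatives were tried, or 12 where the filter removed the gene. They were leaving out each array, fitting the compared groups alone, a replicate block, quantile normalization, median centring, a filter on low values, and intensity-trend and robust variance models. The directions of EREG, HBEGF, TGFA and NRG1 with EGF, and with gefitinib added, were kept under quantile normalization and median centring. No other alternative could have turned them. The other fits and the filter leave these differences unchanged, as does leaving out an array outside the comparison. Since the compared arrays did not overlap, leaving 1 of them out cannot turn a sign. With an array left out a group holds 1 array, which is assumed to vary like the others. Where that array lies outside the comparison, the fit is the same as that of the compared groups alone. The ligands called with EGF then numbered 2 to 4, with gefitinib added 3 to 4, and for EGF plus gefitinib against control 0. In that last comparison limma then called 0 ligands, with 2 to 3 at an unadjusted p under 0.05. They were also 0 with the compared groups alone (2 at an unadjusted p under 0.05), and 2 (HBEGF and EREG) with the filter and with the intensity trend. The cause was not tested. Over all probe sets, same-numbered arrays did not deviate together (correlation of deviations -0.041, 0.021 and -0.0035). This shows no broad shift shared by number, and it cannot tell whether the arrays were paired in origin or for some genes. With the replicate block, the ligand calls were the same in number, at 4, 4 and 1, and 333 probe sets were called for EGF plus gefitinib against control. The block ended the calls of EGFR (adjusted p = 0.0706), LRIG3 (0.0695) and CBL (0.0798) in that comparison, of CD44 with EGF (0.0522) and of PCSK5 with gefitinib added (0.0522), and of no other gene named as called. Over all probe sets, limma called 2554, 4005 and 834 in the 3 comparisons. For EGF against control it called 3945 with the filter, 4237 with the trend and 726 to 2506 with an array left out. For EGF plus gefitinib against EGF an array left out gave 1889 to 3406. For EGF plus gefitinib against control it called 247 with the compared groups alone, 2538 with the filter, 2770 with the trend and 0 to 247 with an array left out (3280 to 4589 at an unadjusted p under 0.05). The sign of BTC with EGF turned under quantile normalization (0.036) and median centring (0.036), and that of EGFR with EGF under quantile normalization (-0.063), none of them called. Leaving out single arrays also turned the sign of differences that were not called, and with EGF they ran from -0.48 to 0.077 for NRG2, -0.093 to 0.19 for the EGF gene, -0.17 to 0.13 for BTC and -0.57 to 0.084 for NRG3. With gefitinib added they ran from -0.022 to 0.20 for NRG2, -0.89 to 0.19 for EPGN and -0.32 to 0.51 for BTC. Against control they ran from -0.34 to 0.49 for BTC, -0.40 to 0.16 for NRG2, -0.22 to 0.44 for NRG3, -0.25 to 0.23 for ERBB4, -0.27 to 0.34 for TGFA and -0.19 to 0.088 for ERBB3. The stricter limit left no fold for EREG, HBEGF and TGFA. No member had another probe set to try. No array value has a read depth, so the limit set by the negative controls bounds what can be said of the EGF gene, BTC, EPGN and NRG2.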
